A study of Mus musculus with 6 samples.

Results

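The mitochondrial ribosome is built from proteins that are encoded in the nucleus, and the table of read counts held 77 of their genes among 21878. They were taken by symbol, as genes named Mrpl or Mrps followed by a digit, for the large (39S) and small (28S) subunit. The rule left out any symbol of the -ps form, which marks a pseudogene. Both groups were tumour-associated macrophages sorted 14 days after mice were injected with MC38, a mouse colon carcinoma line. The KO group came from mice with floxed Trmt61a alleles and LysM-Cre, a Cre recombinase driven from the lysozyme locus of myeloid cells, so macrophages, monocytes and neutrophils can all carry the deletion. The WT group came from mice with the same floxed alleles and no Cre. Each group had 3 libraries, and the labels do not say whether each library was 1 mouse or a pool. All p-values rest on the scatter among these libraries, some of which may be technical. Neither the sorting gate nor the strain, age or sex of the mice is stated in the labels.

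Mitochondrial ribosomes translate the few messages that mitochondrial DNA encodes, all of them for core subunits of the respiratory chain and ATP synthase. Their proteins are made on cytosolic ribosomes and imported, so each functional mitochondrial ribosome needs balanced supplies from many separate nuclear genes. A first class of these proteins has counterparts in bacterial ribosomes, and a second class arose in the mitochondrial lineage. Trmt61a is the catalytic partner of the methyltransferase for m1A, a methylated adenosine, in cytosolic tRNA, and macrophages depend on mitochondrial metabolism for several of their activation states. These libraries measured messenger RNA of the nuclear genes. No symbol of a mitochondrially encoded gene was found in the table under the spellings searched, so mitochondrial transcripts were not analysed here.

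Library totals lay between 18839026 and 20313597 counts. Trmt61a had 41, 33 and 50 counts in the KO libraries and 157, 138 and 148 in the WT libraries, so every library followed its label. Its log2 fold change, KO over WT throughout, was -1.81 (SE 0.197; edgeR adjusted p = 0.0427). It is 1 of 2 called genes, both lower in KO, among the 12136 tested. In a principal component analysis, the leading axis (32.0% of variance) set KO replicate 2 apart, at 29.4, from the other libraries, at -18.0 to 5.26. Replicates differed by more than sampling noise, with a chi-square per degree of freedom of 7.98 or more in every within-group pair. Levels below are CPM, a gene's counts scaled to a common library size with TMM factors, as mean ± SD of 3 libraries. In sorted cells measured in bulk, fewer cells of a type and less RNA per cell cannot be told apart.

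None of the 77 mitochondrial ribosomal protein genes was called different between KO and WT. All 77 passed the filter on low counts, with between 107 and 1075 counts in every library. Their log2 fold changes were small and leaned one way: 60 were negative and 17 positive, with a median of -0.090 and a range of -0.31 to 0.10. The sum over all 77 was 1714, 1723 and 1919 CPM in the KO libraries against 1971, 1878 and 1821 CPM in the WT libraries. KO replicates 1 and 2 were below every WT library, while KO replicate 3 lay between WT replicates 1 and 2, so the groups overlapped. The mean sums were 1786 ± 116 CPM in KO and 1890 ± 75.8 CPM in WT (SD, n = 3 each), a ratio of 0.945.

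The test was edgeR's quasi-likelihood test with Benjamini-Hochberg adjustment over all 12136 tested genes, of which it called 0.0165% at an adjusted p under 0.05. The smallest edgeR adjusted p among the mitochondrial ribosomal protein genes was 0.701, and with DESeq2, which also called 0 of them against 0.239% of all genes, it was 0.559. At an unadjusted p under 0.05, edgeR had 6 of the genes lower and 0 higher, against 3.06% of all tested genes lower and 3.86% higher. DESeq2 had 5 lower and 0 higher at the same limit. Negative values made up 77.9% of the mitochondrial ribosomal protein genes and 50.2% of all tested genes, whose median was -0.00088. The standard errors ran from 0.0753 to 0.189. The 95% intervals of 69 of the 77 genes lay within 0.5 of 0 on the log2 scale, which is a 1.41-fold change, and those of all 77 lay within 1, with the lowest bound at -0.65 and the highest at 0.43. Without WT replicate 1 the median was -0.048 and without KO replicate 1 it was -0.058, and without KO replicate 3 there were 12 genes lower at an unadjusted p under 0.05, where leaving out any other library left 2 or 3. The share of all tested genes at that unadjusted limit was not computed for these fits or for DESeq2, so those counts have no background beside them.

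**Figure D1:**
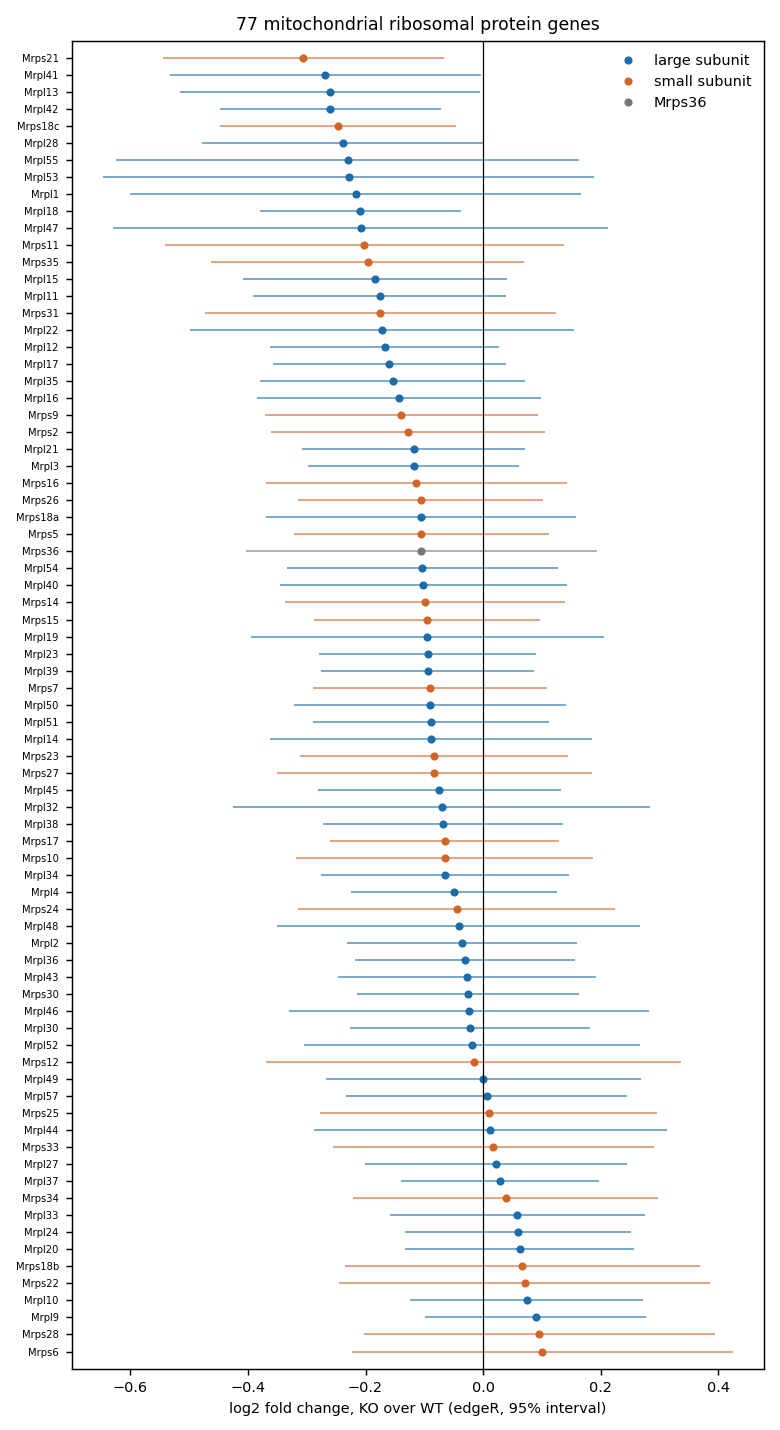
Each point is the edgeR log2 fold change, KO over WT, of 1 of the 77 mitochondrial ribosomal protein genes, and each line its 95% interval, coloured by ribosomal subunit. The points run from -0.31 for Mrps21 to 0.10 for Mrps6, and 6 intervals exclude 0, all of them on the negative side.

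Genes for both subunits were among those with the smallest p on the negative side. Mrpl42, a large-subunit protein with no bacterial counterpart (chromosome 10, 95480805 to 95501940, minus strand, GRCm38), had 30.8, 32.0 and 35.2 CPM in the KO libraries and 40.8, 37.3 and 39.3 CPM in the WT libraries. All KO values lay below all WT values, and the log2 fold change was -0.26 (SE 0.0841, 95% interval -0.45 to -0.07; edgeR adjusted p = 0.701). Mrps21, the counterpart of bacterial S21 in the small subunit (chromosome 3, 95862634 to 95871519, minus strand), had 19.8, 22.1 and 25.7 CPM in KO and 27.0, 27.9 and 28.7 CPM in WT. The groups did not overlap here either, and its log2 of -0.31 (SE 0.107; edgeR adjusted p = 0.701) was the most negative of the 77. Mrps18c, a small-subunit counterpart of bacterial S18 (chromosome 5, 100798627 to 100804471, plus strand), had 22.7, 21.5 and 24.3 CPM in KO and 28.1, 27.4 and 25.9 CPM in WT, again without overlap (log2 -0.25, SE 0.0901; edgeR adjusted p = 0.701).

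Mrpl18, the counterpart of bacterial L18, a protein that in bacteria binds 5S ribosomal RNA (chromosome 17, 12911349 to 12916345, minus strand), had 34.5, 33.0 and 36.7 CPM in KO and 39.6, 40.0 and 40.7 CPM in WT. Its WT libraries lay close together and all above KO (log2 -0.21, SE 0.0766; edgeR adjusted p = 0.702). Mrpl41, a mitochondria-specific protein of the large subunit (chromosome 2, 24974117 to 24975098, minus strand), had 11.9, 11.1 and 12.3 CPM in KO and 15.1, 14.8 and 12.7 CPM in WT. WT replicate 3 came close to KO replicate 3 without crossing it (log2 -0.27, SE 0.118; edgeR adjusted p = 0.713). Mrpl13, the counterpart of bacterial L13 (chromosome 15, 55534094 to 55557748, minus strand), had 34.7, 36.2 and 45.1 CPM in KO and 51.4, 42.7 and 45.0 CPM in WT. KO replicate 3 reached the WT range, and the log2 was -0.26 (SE 0.114; edgeR adjusted p = 0.713). Exons of Mrpl13 share 330 bases with Mtbp, and those of Mrpl18 share 17 bases with Tcp1, both on the opposite strand. Those of Mrps18c share 174 bases with Gm43511 on the same strand.

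The next 6 genes on the negative side included proteins of the stalk, the flexible arm that receives translation factors. Mrpl12, the stalk protein itself, was at 36.0 ± 3.32 CPM in KO and 40.4 ± 1.40 CPM in WT (SD, n = 3 each; log2 -0.17, SE 0.0875). Mrpl11, the counterpart of bacterial L11 at the base of the stalk, was at 18.9 ± 1.42 and 21.4 ± 0.397 CPM in KO and WT (log2 -0.18, SE 0.0965), with KO libraries all below WT. Mrpl28, Mrpl15 and Mrpl17, counterparts of bacterial L28, L15 and L17, had log2 values of -0.24 (SE 0.107), -0.18 (SE 0.101) and -0.16 (SE 0.0887). The small-subunit protein Mrps35 had a log2 of -0.20 (SE 0.119). Their edgeR adjusted p values ran from 0.713 for Mrpl28 to 0.758 for Mrps35.

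In 10 of the 77 genes every KO library lay below every WT library, and in 0 every KO library lay above. Over all tested genes 6.3% had KO wholly below WT and 6.11% wholly above. The 10 were Mrpl3, Mrpl11, Mrpl18, Mrpl21, Mrpl28, Mrpl35, Mrpl41 and Mrpl42 of the large subunit and Mrps18c and Mrps21 of the small subunit. Mrpl21 and Mrpl35 show how small such a gap can be. Mrpl21 averaged 20.99 ± 0.145 CPM in KO and 22.8 ± 0.299 CPM in WT (SD, n = 3 each), with a log2 of -0.12 (SE 0.0853) and an adjusted p of 0.791 with edgeR. Mrpl35 was at 17.8, 17.9 and 17.7 CPM in KO and 21.1, 20.4 and 17.9 CPM in WT, with WT replicate 3 at the KO level to the precision given.

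The start-site regions of the genes with the smallest p are shown because shared promoter sequences are a feature of nuclear genes for mitochondria. Of the 77 genes, 68 matched a RefSeq window of 300 bases on GRCm38.p6, from 250 bases before the start of transcription to 50 after it, and these gave 74 windows. They were searched on both strands for CCGGAAG, the core of sites for ETS factors such as the nuclear respiratory factor 2 (GABP), for GCATGCGC, the core of sites for nuclear respiratory factor 1 (Nrf1), and for AAGATGGCG, the core of sites for Yy1. No motif contains another, but the last 3 letters of the ETS core are the first of the Yy1 core, so matches to both can overlap. Of the 12 genes with the smallest p on the negative side, all but Mrpl13, Mrpl15 and Mrps35 were among those matched, and the 5 whose window held a motif are printed 5′ to 3′ on the strand of the gene, with the matching letters in capitals.
Mrps21 promoter, chr3:95871465-95871764, minus strand: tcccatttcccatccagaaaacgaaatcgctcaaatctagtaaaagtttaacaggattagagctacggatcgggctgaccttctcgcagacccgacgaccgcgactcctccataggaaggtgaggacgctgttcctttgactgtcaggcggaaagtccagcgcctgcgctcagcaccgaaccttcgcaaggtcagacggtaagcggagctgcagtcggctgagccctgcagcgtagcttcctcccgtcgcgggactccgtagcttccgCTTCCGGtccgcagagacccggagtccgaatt
Mrps18c promoter, chr5:100798509-100798808, plus strand: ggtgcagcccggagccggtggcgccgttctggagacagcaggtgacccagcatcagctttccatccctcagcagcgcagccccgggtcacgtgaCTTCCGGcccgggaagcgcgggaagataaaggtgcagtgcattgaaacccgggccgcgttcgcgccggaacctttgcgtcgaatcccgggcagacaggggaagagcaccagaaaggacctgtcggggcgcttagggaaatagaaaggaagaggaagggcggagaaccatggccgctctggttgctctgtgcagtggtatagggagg
Mrpl17 promoter, chr7:105811038-105811337, minus strand: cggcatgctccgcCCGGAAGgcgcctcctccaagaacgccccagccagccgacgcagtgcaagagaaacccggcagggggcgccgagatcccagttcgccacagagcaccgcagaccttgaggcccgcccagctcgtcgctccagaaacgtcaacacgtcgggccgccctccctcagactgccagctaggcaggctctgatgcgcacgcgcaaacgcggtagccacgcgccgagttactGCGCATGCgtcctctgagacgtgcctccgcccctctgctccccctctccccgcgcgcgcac
Mrpl42 promoter, chr10:95501900-95502199, minus strand: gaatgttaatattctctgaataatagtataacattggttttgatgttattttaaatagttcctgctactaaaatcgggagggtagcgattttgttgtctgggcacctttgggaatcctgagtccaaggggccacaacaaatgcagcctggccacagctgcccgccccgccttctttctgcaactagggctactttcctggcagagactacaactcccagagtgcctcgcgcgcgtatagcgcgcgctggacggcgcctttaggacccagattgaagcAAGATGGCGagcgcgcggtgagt
Mrpl18 promoter, chr17:12916042-12916341, minus strand: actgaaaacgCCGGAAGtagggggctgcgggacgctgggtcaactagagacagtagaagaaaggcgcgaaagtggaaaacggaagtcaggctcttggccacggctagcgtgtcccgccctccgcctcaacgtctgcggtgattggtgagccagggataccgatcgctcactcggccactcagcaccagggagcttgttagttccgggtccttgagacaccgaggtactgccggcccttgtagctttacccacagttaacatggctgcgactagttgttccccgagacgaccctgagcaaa
Here Mrps18c and Mrpl18 each held the ETS core before the start, and Mrps21 held it after the start. Mrpl42 held the Yy1 core after the start, and Mrpl17 held both the ETS and the Nrf1 core.

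The ETS core was in 33.8% of the windows of mitochondrial ribosomal protein genes, against 17.5% of the 12442 windows of tested genes and 8.86% of all 32851 windows. The Yy1 core was in 10.8% of their windows, against 2.98% for tested genes and 1.40% for all. The Nrf1 core was in 10.8%, against 5.11% and 2.71%. TATAAA, the TATA box core, was in 6.76%, against 7.02% and 13.6%. The 25 genes with the ETS core had a median of -0.084 and the 43 without it -0.091, and the 8 with the Yy1 core had -0.094 against -0.090 for the 60 without. The 8 with the Nrf1 core had a median of -0.0063, 4 of them negative, against -0.090 for the 60 without. Of the 68 matched genes, 35 held any of these 3 motifs, with a median of -0.083, against -0.094 for the 33 without. These are matches of letters in windows, described without a test.

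Start sites of mitochondrial ribosomal protein genes often faced another gene. In 18 of the 77, or 23.4%, a protein-coding gene on the other strand started within 1000 bases upstream in GENCODE M21, against 10.4% of the 11714 tested protein-coding genes matched. Of the 18 partners 17 were tested, 11 of them had a negative log2 and 0 were called, and their median was -0.042. Mrps12 and Sars2, the mitochondrial seryl-tRNA synthetase, start 172 bases apart and had log2 values of -0.016 and -0.22. Mrpl32 and Psma2, a proteasome subunit, start 75 bases apart and had -0.070 and -0.11. Mrps18c and Helq, a DNA helicase, start 29 bases apart, and Helq was at 0.050 (SE 0.163) where Mrps18c was at -0.25. The members were spread over 17 chromosomes, with 10 on chromosome 11 and 0 on chromosome 12, which carries Trmt61a.

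Proteins of the large subunit numbered 50, including Mrps30 and Mrps18a, which carry small-subunit names and sit in the large subunit. Of the 30 with a bacterial counterpart, 24 were negative with a median of -0.11, and of the 20 specific to mitochondria, 16 were negative with a median of -0.071. No gene of either class was called. Mrpl3, the counterpart of bacterial L3, whose human gene is mutated in a disease of mitochondrial translation, was at 36.0 ± 1.01 CPM in KO and 39.1 ± 2.59 CPM in WT (SD, n = 3 each; log2 -0.12, SE 0.0802). Mrpl10, which anchors the stalk protein Mrpl12, was at 31.8 ± 0.478 and 30.2 ± 2.72 CPM in KO and WT (log2 0.074, SE 0.0887), so the 2 partners of the stalk had opposite signs. Neither passed, and the difference between them was not tested.

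Proteins of the small subunit numbered 26. Of the 16 with a bacterial counterpart 14 were negative, with a median of -0.097, and of the 10 specific to mitochondria 5 were negative, with a median of -0.036. None was called. Mouse has 3 relatives of bacterial S18, which occupy different places in the ribosome. Mrps18c, described above, had the most negative value of them. Mrps18a was at 23.7 ± 2.83 CPM in KO and 25.6 ± 2.90 CPM in WT (SD, n = 3 each; log2 -0.11, SE 0.118), and Mrps18b was at 14.8 ± 1.57 and 14.1 ± 1.92 CPM in KO and WT (log2 0.067, SE 0.135). The KO and WT libraries of both overlapped. Mrps36, which has since been described as a subunit of the 2-oxoglutarate dehydrogenase complex of the citric acid cycle and is counted in neither subunit, was at 12.6 ± 2.02 and 13.5 ± 0.519 CPM in KO and WT (log2 -0.10, SE 0.134).

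The 17 genes with positive values were closer to 0 than the leading negative ones. Mrps6 (log2 0.10, SE 0.145) and Mrps28 (0.096, SE 0.134), counterparts of bacterial S6 and S1, were the highest. Mrps6 had 9.14, 7.19 and 8.43 CPM in KO and 7.86, 7.46 and 7.78 CPM in WT, so KO libraries lay on both sides of WT. Exons of Mrps6 share 159 bases with Slc5a3 and 305 with Gm49711 on the same strand. Mrpl9, the counterpart of bacterial L9, had the smallest p on this side, with 38.7, 37.2 and 37.9 CPM in KO and 37.5, 37.1 and 32.3 CPM in WT. Only WT replicate 3 was apart (log2 0.089, SE 0.0843; edgeR adjusted p = 0.837). Mrpl20 (0.063, SE 0.0873), Mrpl24 (0.059, SE 0.0860) and Mrpl33 (0.058, SE 0.0972), counterparts of bacterial L20, L24 and L33, followed, with Mrps22, a protein whose human gene is mutated in a disease of mitochondrial translation, at 0.071 (SE 0.142). Mrpl37, Mrps34 and Mrpl27 had log2 values of 0.029, 0.038 and 0.021. The edgeR adjusted p values of all 17 were at least 0.837.

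The proportion of the subunits varied little across the libraries. Large-subunit genes summed to 2.497, 2.458 and 2.486 times the small-subunit sum in the KO libraries and to 2.459, 2.506 and 2.439 times in the WT libraries. The mean ratio was 2.48 ± 0.0203 in KO and 2.47 ± 0.0344 in WT (SD, n = 3 each), a difference inside the spread of either group. The large-subunit sum itself was 1264 ± 81.9 CPM in KO and 1335 ± 55.1 CPM in WT, and the small-subunit sum 509 ± 32.2 and 541 ± 21.7 CPM in KO and WT.

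Many genes were high or low together in a library, in both groups. KO replicate 1 was below the WT mean in 69 of the 77 genes, KO replicate 2 in 63 and KO replicate 3 in 33. The mean of centred log2 CPM over the 77 was -0.0995, -0.0974 and 0.0662 in the KO libraries and 0.107, 0.0336 and -0.00955 in the WT libraries. WT replicate 1 was the highest library for 31 genes and the lowest for 0. KO replicate 2 was the lowest for 31 and KO replicate 1 for 25. WT replicate 3 was the lowest for 10 genes, and KO replicate 3 the highest for 16, more than WT replicate 2 with 15. KO replicate 3 thus lay inside the range of the WT libraries, and KO replicates 1 and 2 lay below it.

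**Figure D2:**
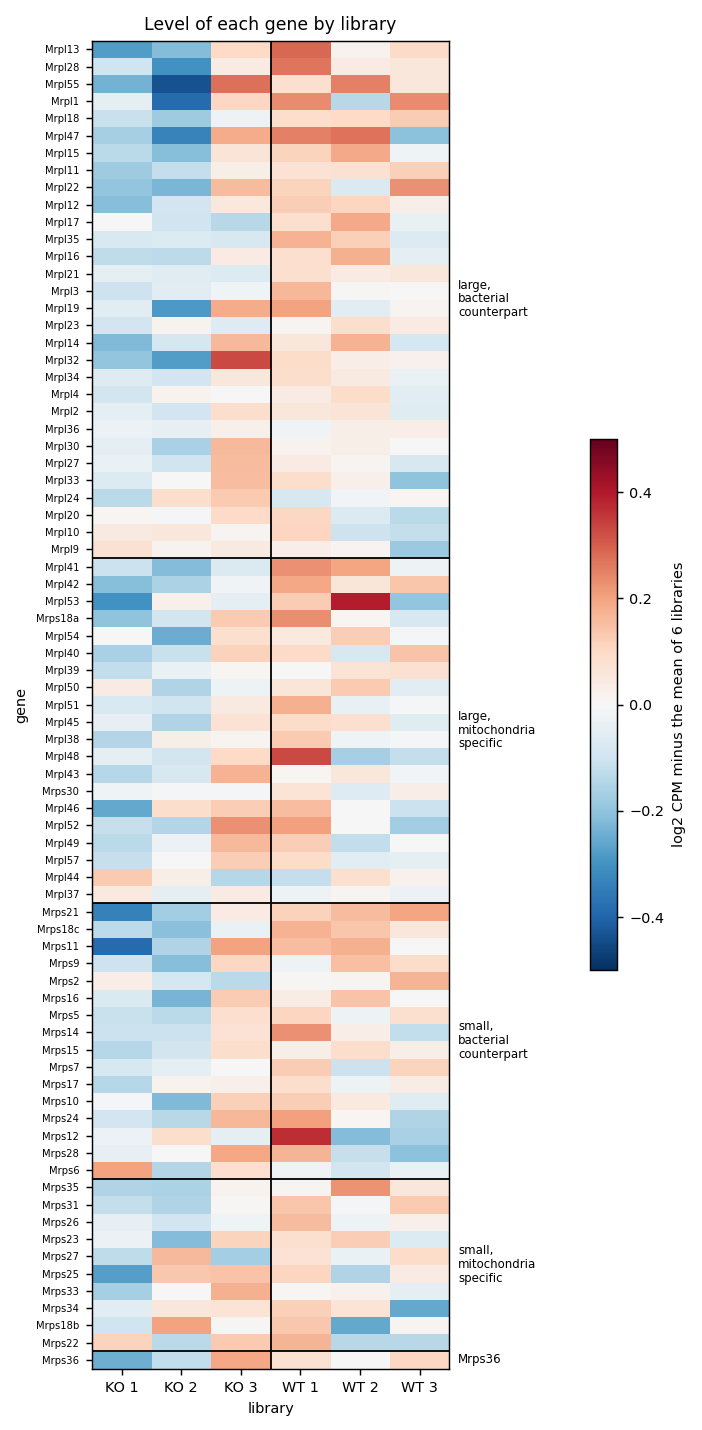
Colour gives log2 CPM minus the mean of the 6 libraries for each mitochondrial ribosomal protein gene (rows, grouped by subunit and by whether bacteria have a counterpart) in each library (columns, KO then WT). KO replicates 1 and 2 are mostly blue, WT replicate 1 is mostly red, and KO replicate 3 is above the mean of the 6 libraries for 59 of the 77 genes.

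Levels differed far more between genes than between genotypes. Per kb of annotated exon, the mean over all libraries spanned 44.5-fold, with a median of 15.6 CPM per kb and quartiles of 7.52 and 26.6. The highest were Mrpl33 at 93.2 ± 7.46 CPM per kb in KO and 89.6 ± 9.18 in WT, and Mrpl52 at 80.9 ± 12.2 in KO and 82.0 ± 10.9 in WT (SD, n = 3 each). Libraries of these 2 genes overlapped in both groups. Mrpl42, Mrps21 and Mrpl30 came next at 48.1, 45.8 and 44.3 CPM per kb in KO and 57.6, 56.7 and 45.0 in WT. Mrpl33, Mrpl52, Mrpl42 and Mrps21 are short messages, of 0.478, 0.491, 0.679 and 0.492 kb.

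The lowest were Mrpl1, the counterpart of bacterial L1, at 1.90 ± 0.319 CPM per kb in KO and 2.21 ± 0.316 in WT, and Mrpl47 at 2.22 ± 0.417 in KO and 2.57 ± 0.452 in WT (SD, n = 3 each). Mrps35, Mrpl19 and Mrps25 followed at 2.75, 3.53 and 3.90 CPM per kb in KO and 3.15, 3.77 and 3.88 in WT. KO and WT libraries of Mrpl1 and Mrpl47 overlapped, while those of Mrpl42 and Mrps21 at the top did not. The exon length joined all exons of GENCODE's basic set, which makes genes with long rare transcripts look low. With the median protein-coding transcript in its place the span was 38.2-fold, and the Spearman correlation of the orders across the 77 genes was 0.917, a description over genes that share libraries. Exons of 25 of the 77 overlapped another annotated gene, 21 of them on the opposite strand. Whether the counting used strand is not stated, and those values are therefore uncertain. Over the 52 genes without such overlap, 44 were negative and the median was -0.095.

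**Figure D3:**
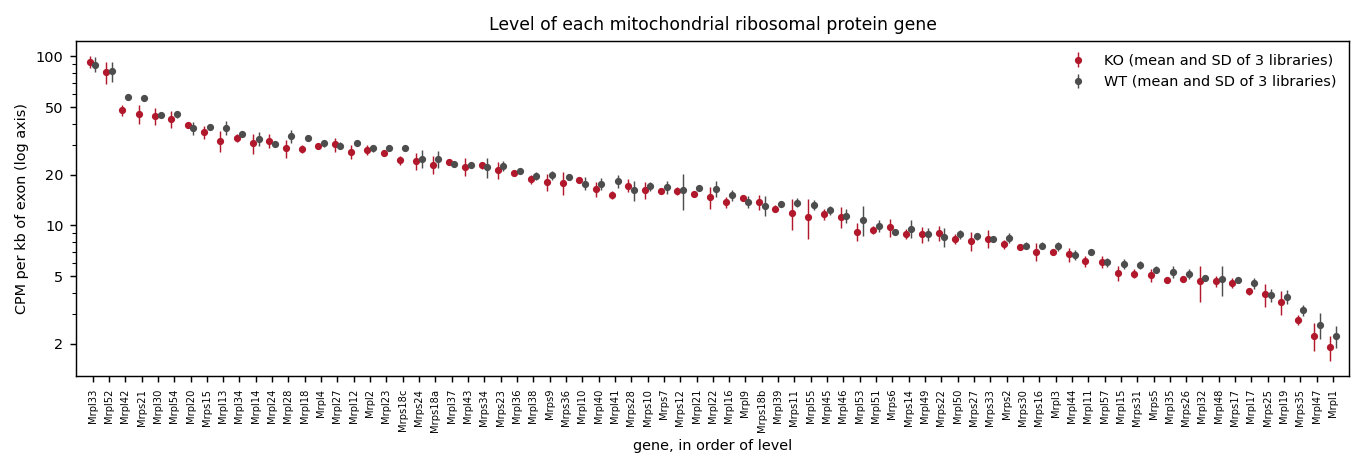
Points are the mean and bars the SD of 3 KO and 3 WT libraries, in CPM per kb of exon on a log axis, for the 77 genes in order of level. The order runs from Mrpl33, at 93.2 CPM per kb in KO and 89.6 in WT, to Mrpl1, at 1.90 in KO and 2.21 in WT, and KO and WT points of a gene lie close together.

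Mitochondrial ribosomal proteins that carry other symbols had small changes too. Of 6 such genes 5 were negative, with a median of -0.082, and 0 were called. Leaving out 1 library moved that median to between -0.13 (KO replicate 3) and -0.028 (KO replicate 2), and it was -0.054 without KO replicate 1, -0.043 without WT replicate 1 and -0.047 without WT replicate 2. Ptcd3, a small-subunit protein, was at 19.7 ± 1.61 CPM in KO and 21.9 ± 2.27 CPM in WT (SD, n = 3 each; log2 -0.15, SE 0.112), Chchd1 of the small subunit was at -0.10 (SE 0.117), and Gadd45gip1 of the large subunit was at -0.10 (SE 0.115). Of 17 mitochondrial translation factors 14 were negative, with a median of -0.087, and 0 were called. Without KO replicate 2 it was -0.056. Mrrf, which recycles ribosomes after termination, was at 9.67 ± 1.23 and 11.7 ± 1.08 CPM in KO and WT (log2 -0.28, SE 0.139). The initiation factor Mtif2 was at -0.16 (SE 0.0998), and Mtfmt, which formylates the initiator tRNA, was at 0.29 (SE 0.188). Their edgeR adjusted p values were at least 0.725.

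Genes that build the ribosome, or that make mitochondrial RNA or DNA, did not lean to the negative side. Of 27 mitoribosome assembly factors 11 were negative and 16 positive, with a median of 0.039, and 0 were called. The median was 0.013 without KO replicate 2, with 13 negative, and 0.078 without KO replicate 3, with 8 negative. Afg3l2, a subunit of the protease that matures Mrpl32, was at 114 ± 9.52 CPM in KO and 101 ± 7.85 CPM in WT (SD, n = 3 each; log2 0.18, SE 0.0869). Mterf3, which takes part in assembly of the large subunit, was at 0.26 (SE 0.132), and Mettl15, a methyltransferase of the small-subunit RNA, was at -0.39 (SE 0.273) with 35 to 53 counts in KO and 42 to 70 in WT. The list of mitochondrial transcription and RNA processing also held genes of mitochondrial DNA replication, such as Polg and Polg2. Of its 16 tested genes 6 were negative, with a median of 0.032, and 0 were called. Without WT replicate 1 that median was -0.019. Polrmt, the mitochondrial RNA polymerase, had 21.6, 21.3 and 20.5 CPM in KO and 17.3, 18.5 and 19.8 CPM in WT, with no overlap (log2 0.19, SE 0.0963). Polg2, a subunit of the mitochondrial DNA polymerase, was at 0.35 (SE 0.172) and the helicase Supv3l1 at -0.24 (SE 0.136). The edgeR adjusted p values of the 6 genes named from these lists were at least 0.722.

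Of 10 transcription factors and coactivators known to regulate nuclear genes for mitochondria, 9 were tested, 4 were negative with a median of 0.036, and 0 were called. The median was -0.038 without KO replicate 2 and -0.034 without WT replicate 1. Gabpa and Gabpb1, subunits of GABP, which binds the ETS core, were at -0.10 (SE 0.0758) and -0.17 (SE 0.110), and Gabpb2, another beta subunit, was at 0.075 (SE 0.0781). Esrra, an orphan nuclear receptor, was at -0.11 (SE 0.0868). The coactivator Ppargc1a had 1 count in KO replicate 1, 1 in WT replicate 3 and 0 in the others, and was not tested. Nrf1 was at 35.2 ± 1.602 CPM in KO and 33.1 ± 1.95 CPM in WT, and Yy1 at 77.2 ± 3.45 and 73.7 ± 1.16 CPM in KO and WT (SD, n = 3 each), with log2 values of 0.091 (SE 0.0824) and 0.067 (SE 0.0676). Nrf1, Yy1, Gabpb2 and Ppargc1a are named for their known roles, after their values were seen.

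**Figure D4:**
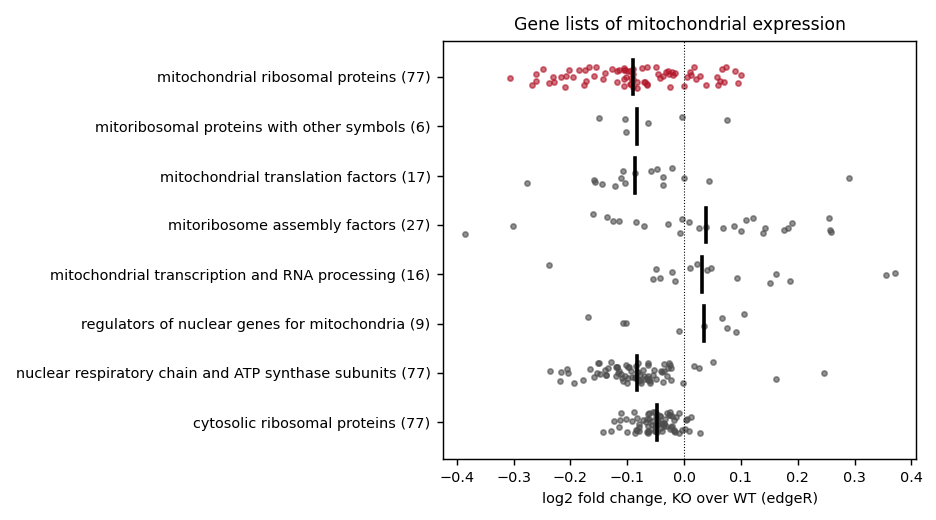
Each point is the edgeR log2 fold change, KO over WT, of 1 tested gene, in rows by list, and black bars mark medians. Mitochondrial ribosomal proteins (median -0.090) and respiratory chain subunits (-0.083) lie mostly left of 0, and assembly factors (0.039) lie on both sides.

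Nuclear subunits of the respiratory chain and ATP synthase, which assemble with the products of mitochondrial ribosomes, showed a similar small shift. Of 77 tested, 72 were negative with a median of -0.083, and 0 were called. The median was -0.035 without KO replicate 1, with 61 negative, and -0.15 without KO replicate 3, with 75 negative. Ndufb9, a complex I subunit, was at 50.3 ± 5.58 CPM in KO and 59.2 ± 3.46 CPM in WT (SD, n = 3 each), with a log2 of -0.24 (SE 0.0926) and an adjusted p of 0.703 with edgeR. The ratio of the mitochondrial ribosomal protein sum to the respiratory chain sum was 0.265, 0.260 and 0.260 in the KO libraries and 0.265, 0.255 and 0.262 in the WT libraries, with overlap between the groups. Cytosolic ribosomal proteins, also 77 genes, had 71 negative values with a median of -0.048 and 0 calls. The cytosolic direction depended on the library left out: without WT replicate 2 only 21 of the 77 were negative, with a median of 0.017. The median was -0.0095 without KO replicate 1, with 50 negative, and -0.015 without KO replicate 2, with 54 negative. Without KO replicate 3 it was -0.12, with 77 negative. The ratio of mitochondrial to cytosolic ribosomal protein sums was 0.0467, 0.0463 and 0.0450 in KO and 0.0510, 0.0434 and 0.0473 in WT, and the groups overlapped. Differences between these lists were not tested.

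**Figure D5:**
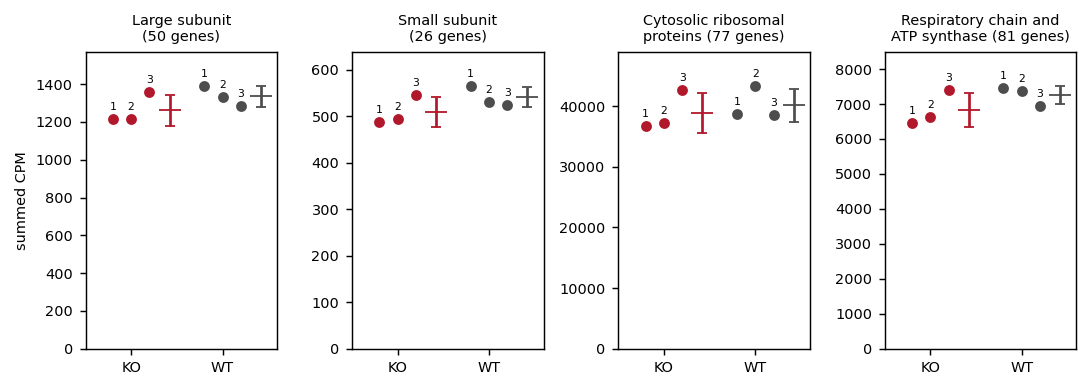
Summed CPM of 4 gene lists in each library, with replicate numbers beside the points and the mean ± SD of 3 libraries to their right, on axes that start at 0. In each panel KO replicates 1 and 2 are lowest and KO replicate 3 lies within or near the WT libraries.

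In the same libraries, KO and WT did not overlap in the sums for dividing cells and neutrophils. They overlapped in the sums for the other cell types. The sum of 8 genes of dividing cells was 738, 672 and 810 CPM in KO and 930, 833 and 915 CPM in WT, without overlap. All 8 had negative log2 values, 4 of them at an unadjusted edgeR p under 0.05 and 0 called. Over all tested genes, 3.06% were lower and 3.86% higher at that unadjusted limit. The 12 macrophage markers summed to between 18360 and 20220 CPM in KO and between 18910 and 20710 CPM in WT, and all 12 passed the filter on low counts. Of these 8 had negative and 4 positive log2 values, with a median of -0.076. At an unadjusted edgeR p under 0.05, 2 were lower and 1 was higher, and 0 were called. The 11 neutrophil markers summed to 132 to 182 CPM in KO and 85.4 to 120 CPM in WT, of which Mmp9 made up 125, 46.8 and 64.8 CPM in KO and 47.7, 30.7 and 40.2 CPM in WT, and Ly6g had 0 counts in all libraries but KO replicate 3, with 3. Of the 7 neutrophil markers tested 6 had positive log2 values, with a median of 0.69, 4 of them (S100a8, Mmp8, Mmp9 and Ltf) at an unadjusted edgeR p under 0.05 and 0 called. The 14 T and NK markers summed to 20.3 to 64.9 CPM in KO, highest in KO replicate 2, and 21.9 to 34.3 CPM in WT. Of the 12 tested 11 had positive log2 values, with a median of 0.38, 2 of them at an unadjusted edgeR p under 0.05 and 0 called. Fibroblast markers (6) were at 198 to 292 CPM in KO and 201 to 317 CPM in WT, endothelial markers (5) at 65.1 to 88.7 and 61.2 to 72.0 CPM in KO and WT, and dendritic cell markers (6) at 15.5 to 30.2 and 12.1 to 23.5 CPM in KO and WT. B cell markers (5) were at 0.986 to 2.73 CPM in KO and 1.46 to 1.68 CPM in WT. Of the 6 epithelial or tumour markers Epcam, Krt8, Krt18, Krt19 and Cldn7 had 8 counts or fewer in every library, and Cdh1 made up nearly all of the sums of 112 to 134 CPM in KO and 77.04 to 141 CPM in WT. The part of these cell types and of dividing cells in the values of mitochondrial ribosomal protein genes was not tested.

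The deposited annotation gave these genes a common description. All 77 carried a Gene Ontology term that names the mitochondrion or a part of it, 74 one that names the mitochondrial ribosome or a subunit of it, and 63 the term for structural constituents of the ribosome. The KEGG ribosome pathway listed 43 of them. GENCODE M21 names 5 pseudogenes after members in the -ps form, of Mrpl23, Mrpl48 and Mrps36. Reads of these 3 genes could be divided among copies in a way the counts do not record. Pseudogenes under other names were not searched for, so other members may have copies too.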

How the data were processed

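Per the labels, mirVana reagents gave the RNA and TruSeq stranded mRNA kits the libraries. The submitters' processing notes list Trimmomatic, HISAT2, Cufflinks, HTSeq and the mm10 build and give no versions. The authors deposited unnormalized counts for each gene, with different sums in each library; their annotation is not given in the sources used here. No row lacked a gene name.

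KO was compared with WT in R 4.3.3 with edgeR 4.0.16. filterByExpr (minimum count 10, minimum total 15) left 12136 of 21878 genes and 99.962% of reads. TMM factors and robust quasi-likelihood fits with genotype as the only term were used, with calls at a Benjamini-Hochberg adjusted p under 0.05 over all tested genes. SE is the log2 fold change over the root of F, and 95% intervals use the fit's degrees of freedom. Centred values are log2 CPM (prior count 2). The common biological coefficient of variation was 0.11. Symbols were placed with GENCODE M21 on GRCm38, the assembly of mm10, and promoters come from RefSeq windows of GRCm38.p6, matched by NCBI gene number.

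The genes, lists and motifs were chosen with earlier results of these data known. Genes named are up to 12 with the smallest p in each direction, the 5 highest and 5 lowest per exon length, Mrps18a, Mrps18b, Mrps18c, Mrpl10, Mrpl12, Mrpl18 and Mrps36 always, and 3 per pathway list. A few more were named after their values were seen, among them the members that fill out the count of 10 separated genes, genes beside a start site, Nrf1, Yy1, Gabpb2, Ppargc1a, neutrophil markers, Mrpl3 and Mrpl35. Alternatives were other scalings, filters, DESeq2 1.42.0, limma-voom 3.58.1, a replicate block and each library left out. The fit was first tested on simulated counts with planted changes. There edgeR made 183 calls, 18 of them false, and DESeq2 199, 27 of them false. Of the planted changes, edgeR recovered 62.7% at 1.5-fold and 92.4% at 2-fold. Such rates depend on how many changes are planted.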

Additional observations from a re-analysis of the deposited data

How the results depend on the processing

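The counts of 0 mitochondrial ribosomal protein genes called higher and 0 called lower held under all 17 alternative fits and at an adjusted p under 0.1. Over those fits their median log2 stayed negative, from -0.129 without KO replicate 3 to -0.0484 without WT replicate 1, with 54 to 66 of 77 genes negative, and the ratio of summed CPM ran from 0.911 to 0.967 over the scalings and the libraries left out. The difference of the large over small subunit ratio, KO minus WT, ran from -0.00217 to 0.0313 as libraries were left out, around 0.0123. Over all genes, edgeR called 0 higher and 2 lower. Lower calls were 1 with RLE factors, upper-quartile factors, library totals alone, no filter, a minimum count of 5, limma-voom or the replicate block, 0 with a minimum count of 20, and 21 with DESeq2, which called 8 higher. Quality weights gave 1 higher and 3 lower. Leaving out 1 library gave 0 to 3 higher and 0 to 2 lower. The cause was not tested. Same-numbered KO and WT libraries had correlations of -0.0574, -0.0941 and -0.109 in their deviations from the group mean. These gave no sign of an effect shared by replicate number, but deviations centred within such small groups cannot exclude pairing. With the replicate block the median of the 77 genes was -0.0929.

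Of 32 named members, 24 moved by over 1.5 times when 1 library was left out. Signs changed for Mrpl52 (0.026) and Mrps25 (-0.060) with quality weights. Without 1 library, values ran from -0.15 to 0.087 for Mrpl52, -0.058 to 0.13 for Mrps25, -0.22 to 0.014 for Mrpl19, -0.054 to 0.074 for Mrpl27, -0.11 to 0.049 for Mrpl30, -0.024 to 0.12 for Mrpl33, -0.030 to 0.16 for Mrps18b and -0.070 to 0.11 for Mrps34. Trmt61a kept log2 values from -1.94 to -1.69 and lost its call with a minimum count of 20, with limma-voom, with the replicate block and without any library but KO replicate 2. With 3 libraries a group, the precision of 1 gene was limited to standard errors of 0.0753 to 0.189 on the log2 scale.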
